A study of Mus musculus with 12 samples.

Results

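The thioredoxin and glutathione redox genes are 10 genes that belong to, or act on, the systems that keep protein thiols reduced and clear peroxides: Txn1, Txnrd1, Txnip, Prdx1, Prdx4, Gclc, Gclm, Gsr, Srxn1 and Gpx4. They were taken by gene symbol from a table of 48709 genes, 19181 of them above 0 in any library, and all 10 were found and passed the filter on low values (at least 1 TPM in at least 3 of 12 libraries), as did 12630 genes in all. Expression was measured by RNA-seq in CD8 T cells of OT-I mice, which carry a transgenic T cell receptor for an ovalbumin peptide. The 4 groups of 3 libraries were unstimulated splenic cells (Naive) and cells taken 24, 48 and 72 h after activation began with antibodies to CD3 and CD28 plus IL-2 (24h, 48h and 72h). The stimulus lasted 48 h, so the 72h cells had left the activation plates for their last day. All groups share the OT-I receptor, no other allele is named in the labels, and the extraction notes speak of transferred OT-I cells without saying whether this covers these libraries. The libraries are described as biological replicates, but whether each came from its own mouse is not stated, so the p-values measure the spread between these libraries.

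Linked systems share this work in the cytosol. Thioredoxin (Txn1) reduces disulfides in proteins, including ribonucleotide reductase and peroxiredoxins, and is itself reduced by the NADPH-dependent selenoenzyme thioredoxin reductase (Txnrd1), while Txnip binds thioredoxin and also restrains glucose uptake. Glutathione is built from glutamate and cysteine by a ligase with a catalytic (Gclc) and a modifier (Gclm) subunit, and its oxidised form is returned to the reduced form by glutathione reductase (Gsr). In T cells, glutathione is known to be needed for the metabolic growth that follows activation, and Gpx4, which uses it to reduce lipid peroxides, for survival of activated cells.

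Whole reads recovered from the TPM values came to between 14082104 and 19254907 per library, and the members drew between 22 (Srxn1) and 36665 (Txnip) reads in a library. Naive libraries held more RNA of other splenic cells, although the 10 T cell markers were abundant in every group (summed 6382 to 6799 TPM in Naive, 3717 to 4003 at 24h, 3467 to 3497 at 48h and 4330.4 to 4380 at 72h). The 14 myeloid markers summed to 1216 to 3146 TPM in Naive, 25.01 to 32.8 at 24h, 12.1 to 16.4 at 48h and 6.64 to 7.71 at 72h, and all 14 were called lower at each time against Naive. The 10 B cell markers summed to 2353 to 3436, 342 to 366, 133 to 153 and 58.3 to 69.2 TPM at the same 4 stages, with 9 called lower at 24h. The 10 erythroid and platelet markers summed to 1550 to 2166 TPM in Naive and at most 17.8 later, with 9 of the 9 tested called lower at each time. The 6 NK markers, which share Tyrobp and Fcer1g with the myeloid list, summed to 212 to 558 TPM in Naive and 107 to 110.0, 54.9 to 60.04 and 24.8 to 28.1 TPM at 24h, 48h and 72h, with 5 called lower at each time. The NK marker Eomes, which activated CD8 T cells are also known to express, was called higher at 24h and 48h and made up 95.6 to 103 TPM of the sum at 24h, where Ncr1, Klrb1c and Klra8 were each at most 2.03 TPM. The CD4 T cell markers Cd4 and Foxp3 summed to 4.27 to 9.41 TPM in Naive and at most 1.71 TPM later. C1qa and Hba-a1 were at 0 in all 48h and 72h libraries. In bulk RNA, fewer cells of a type and less RNA per cell cannot be told apart.

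Against Naive, 5 or 6 of these 10 genes were called higher at each activated time, and Txnip was far lower. At 24h vs Naive, Txn1, Txnrd1, Prdx1, Prdx4, Gclm and Gsr rose and Txnip fell, which is 6 of 10 members higher where 25.7% of all genes tested were, and 1 lower where 21% were. At 48h vs Naive 6 were higher (Txn1, Txnrd1, Prdx1, Prdx4, Gclm and Gpx4) against 24.7% of all genes, and Txnip alone was lower against 20.7%. At 72h vs Naive 5 were higher (Txn1, Txnrd1, Prdx1, Prdx4 and Gclm) against 24.5%, and Txnip and Srxn1 were lower against 19%. To count as higher or lower, a gene needed a log2 fold change of 1 or more in size (the fold minimum) together with a limma p, adjusted by Benjamini-Hochberg over all genes tested, under 0.05 on log2(TPM + 1). The median log2 fold change of the members was 1.26 (24h), 1.01 (48h) and 1.04 (72h), beside 0.15, 0.15 and 0.21 for all genes tested. By adjusted p alone 7 members were higher and 1 lower at 24h (45.9% and 36.6% of all genes), 7 and 1 at 48h (46.2% and 36.7%), and 7 and 2 at 72h (47.5% and 34.8%). Libraries did not overlap with Naive for 6 members above and 1 below at 24h, 7 and 1 at 48h, and 7 and 2 at 72h. Of all genes tested, 81.6%, 82.2% and 81.7% did not overlap at these times, so lack of overlap with Naive is common here. Median-of-ratios scaling moved the median of all genes to −0.10, −0.07 and −0.06, and the share of calls against Naive that were higher from 54.98% to 42.8% at 24h, 54.4% to 44.2% at 48h and 56.3% to 42.2% at 72h. With that scaling 4 member calls were lost, which were Gsr at 24h, Gclm and Gpx4 at 48h, and Gclm at 72h.

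**Figure D1:**
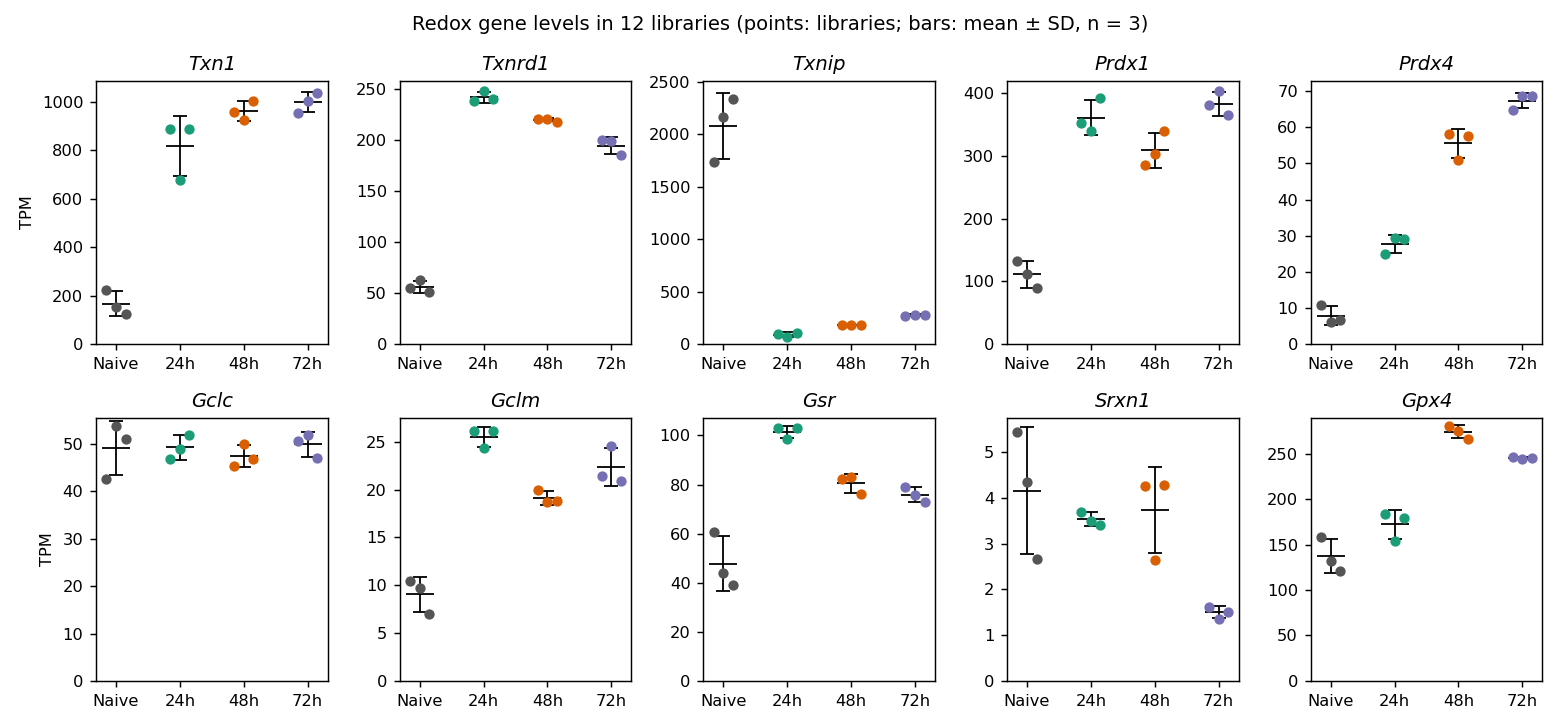
TPM of each of the 10 genes (vertical axis from 0) in the Naive, 24h, 48h and 72h libraries, as points with the mean and SD of 3 libraries. Txnip sits near 2077 TPM in Naive and at most 282 TPM in any later library, Gclc stays close to 49 TPM throughout, and most of the others are lowest in Naive.

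Many antioxidant genes are known targets of the transcription factor NRF2 (Nfe2l2), which binds antioxidant response elements, so the promoter windows of the members were read for the letters TGACNNNGC on both strands. RefSeq windows (GRCm38.p6, 250 bases before to 50 after an annotated start) were at hand for 8 of the 10 members, without Gclc and Gsr. The letters occurred in 4 of those 8 (Prdx1, Gclm, Txnrd1 and Srxn1), beside 14.0% of 27025 genes and 12.4% of 32851 windows, where genes with several windows such as Txnrd1 and Gpx4 have more chances to match. Matches lay at −133 from the start in Prdx1, −134 in Gclm, −92 in Txnrd1 and 28 in Srxn1, each on the strand opposite to the gene. The E-box letters CACGTG occurred in Prdx4 alone (8.09% of genes), and a pair of them 5 bases apart in none of the windows. The carbohydrate response element known for Txnip is instead a pair of CACGAG 5 bases apart. This exact pair, searched for after the Txnip window had been read, lay at −85 in Txnip on the strand of the gene, in 1 of 32851 windows. A match is a description of letters and not of binding, and no match says only that these letters are not in this window. Presence of TGACNNNGC did not sort the members by direction, since Srxn1 carries it and was not called higher, while Txn1, Prdx4 and Gpx4 were called higher at one time or more without it. The windows of Prdx1, Gclm and Txnrd1 (match, called higher), Srxn1 (match, called lower at 72h), Txn1 (no match, called higher) and Txnip (the CACGAG pair, called lower) are shown, at chr4:116685349-116685648 (Prdx1, plus strand), chr3:122245307-122245606 (Gclm, plus strand), chr10:82858956-82859255 (Txnrd1, plus strand), chr2:152105274-152105573 (Srxn1, plus strand), chr4:57956362-57956661 (Txn1, minus strand) and chr3:96557707-96558006 (Txnip, plus strand). Capitals mark TGACNNNGC, read on the opposite strand, and in Txnip the CACGAG pair with the bases between:
Prdx1: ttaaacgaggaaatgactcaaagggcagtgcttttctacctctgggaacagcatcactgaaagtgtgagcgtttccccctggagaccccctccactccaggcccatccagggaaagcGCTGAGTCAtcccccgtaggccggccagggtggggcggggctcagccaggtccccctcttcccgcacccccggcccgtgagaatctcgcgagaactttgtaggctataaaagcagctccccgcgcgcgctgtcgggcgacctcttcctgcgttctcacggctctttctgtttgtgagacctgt
Gclm: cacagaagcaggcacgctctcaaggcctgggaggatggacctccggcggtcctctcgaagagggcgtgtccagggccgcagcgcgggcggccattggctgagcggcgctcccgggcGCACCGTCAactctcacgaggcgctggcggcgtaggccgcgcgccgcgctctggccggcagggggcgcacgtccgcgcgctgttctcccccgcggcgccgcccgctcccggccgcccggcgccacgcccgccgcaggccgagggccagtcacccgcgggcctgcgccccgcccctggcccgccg
Txnrd1: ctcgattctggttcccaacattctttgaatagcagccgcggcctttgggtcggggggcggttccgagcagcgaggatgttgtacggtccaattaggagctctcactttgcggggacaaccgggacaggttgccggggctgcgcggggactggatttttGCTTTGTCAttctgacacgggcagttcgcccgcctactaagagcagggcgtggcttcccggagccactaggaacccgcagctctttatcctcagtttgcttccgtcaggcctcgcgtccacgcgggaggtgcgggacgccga
Srxn1: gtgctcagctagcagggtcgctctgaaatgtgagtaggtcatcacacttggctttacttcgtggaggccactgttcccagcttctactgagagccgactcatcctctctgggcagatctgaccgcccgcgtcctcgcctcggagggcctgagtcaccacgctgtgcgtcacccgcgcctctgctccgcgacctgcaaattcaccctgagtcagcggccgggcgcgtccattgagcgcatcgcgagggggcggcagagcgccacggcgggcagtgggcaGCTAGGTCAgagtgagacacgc
Txn1: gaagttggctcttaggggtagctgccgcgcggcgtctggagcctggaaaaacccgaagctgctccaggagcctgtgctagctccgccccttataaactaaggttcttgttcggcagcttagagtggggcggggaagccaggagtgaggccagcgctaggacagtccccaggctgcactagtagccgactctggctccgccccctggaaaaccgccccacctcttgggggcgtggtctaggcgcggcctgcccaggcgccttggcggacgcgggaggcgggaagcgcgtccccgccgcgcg
Txnip: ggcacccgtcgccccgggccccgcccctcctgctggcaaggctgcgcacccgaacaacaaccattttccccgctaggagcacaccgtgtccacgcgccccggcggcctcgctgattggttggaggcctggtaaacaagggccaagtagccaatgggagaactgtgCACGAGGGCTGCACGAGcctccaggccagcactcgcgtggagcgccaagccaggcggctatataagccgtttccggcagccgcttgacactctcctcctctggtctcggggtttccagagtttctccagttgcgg

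Thioredoxin itself was the most abundant member after activation. Txn1 (ENSMUSG00000028367) stood at 225, 152 and 126 TPM in the Naive libraries, 888, 676 and 890.0 TPM at 24h, 959, 924 and 1004 TPM at 48h, and 955, 1004 and 1037 TPM at 72h. Every activated library lay above every Naive library, with 24h replicate 2 the lowest of the activated ones. Against Naive the log2 fold changes were 2.31 (24h), 2.55 (48h) and 2.61 (72h), each with an SE of 0.16 (limma adjusted p = 1.81e-08, 6.71e-09 and 5.74e-09). The steps between activated groups did not pass, with 0.24 for 48h vs 24h (adjusted p = 0.237) and 0.05 for 72h vs 48h (adjusted p = 0.829), so the order of the 3 activated times is not set beyond their spread. Median-of-ratios scaling turned the last step to −0.003.

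Txnrd1 (ENSMUSG00000020250), which keeps thioredoxin reduced, had its highest level at the first activated time. It stood at 55.3, 62.4 and 50.8 TPM in Naive, 238, 248 and 239.6 TPM at 24h, 219.9, 221 and 218 TPM at 48h, and 199.98, 198 and 185 TPM at 72h. The 4 groups did not overlap, in the order 24h, 48h, 72h and Naive. On the log2 scale it rose by 2.09 (24h), 1.95 (48h) and 1.78 (72h) over Naive, each with an SE of 0.07 (adjusted p = 6.43e-12, 1.43e-11 and 3.81e-11). Between activated times the differences were −0.14 for 48h vs 24h (adjusted p = 0.105), −0.18 for 72h vs 48h (adjusted p = 0.0519) and −0.31 for 72h vs 24h (adjusted p = 0.00141, under the fold minimum), so 24h and 48h, and 48h and 72h, were not told apart by the test.

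Txnip (ENSMUSG00000038393), the thioredoxin-binding arrestin, moved the other way, with the largest change of the 10 members at 24h and 48h against Naive. Its level was 1731, 2160.3 and 2339 TPM in Naive, 93.3, 64.6 and 110.2 TPM at 24h, 182, 179.8 and 187 TPM at 48h, and 266, 277 and 282 TPM at 72h. The 4 groups did not overlap, and after the low point at 24h each later group stood above the one before it while remaining far under Naive. Set against Naive, the log2 fold changes were −4.55 (24h), −3.49 (48h) and −2.90 (72h), each with an SE of 0.15 (adjusted p = 9.12e-12, 1.38e-10 and 9.51e-10). Txnip was the 1 member called in the comparison of 48h vs 24h, where it rose by 1.06 (adjusted p = 8.49e-05) against 4.95% of all genes called higher. Without 24h replicate 2, which had the lowest Txnip, that rise was 0.85 and under the fold minimum. At 72h vs 48h it was higher by 0.58 (adjusted p = 0.00787), under the fold minimum, and at 72h vs 24h it rose by 1.64 (adjusted p = 1.34e-06).

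**Figure D2:**
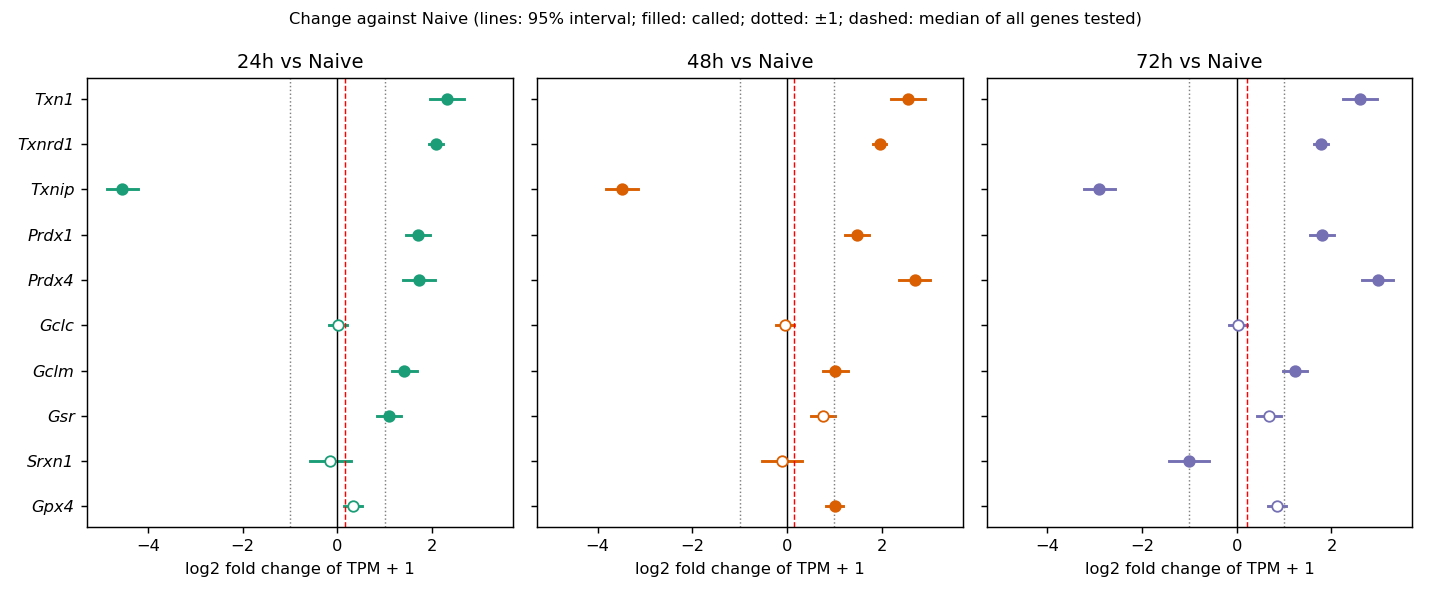
Log2 fold change of TPM + 1 (horizontal axis) for each gene at 24h, 48h and 72h against Naive, with 95% intervals, filled points for genes called and a dashed line at the median of all genes tested. Txnip lies at −4.55, −3.49 and −2.90, Gclc lies at 0 in each panel, and Gclm at 48h, Gpx4 at 48h and Srxn1 at 72h lie on the dotted lines of the fold minimum.

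Peroxiredoxins reduce hydrogen peroxide, Prdx1 in the cytosol with electrons from thioredoxin, and Prdx4 in the endoplasmic reticulum. Prdx1 (ENSMUSG00000028691) stood at 132, 112 and 89.1 TPM in Naive, 352, 339 and 392 TPM at 24h, 285, 303 and 339 TPM at 48h, and 380.3, 403 and 365 TPM at 72h. All activated libraries lay above all Naive libraries, and 24h and 72h overlapped. It rose by 1.71, 1.48 and 1.79 at the 3 times against Naive (SE 0.12, adjusted p = 1.20e-08, 5.38e-08 and 7.93e-09). Prdx1 was 0.31 higher at 72h vs 48h (adjusted p = 0.0469, under the fold minimum), and 24h did not differ from 48h (−0.23, adjusted p = 0.125) or 72h from 24h (0.09, adjusted p = 0.552) beyond the test's threshold.

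Prdx4 (ENSMUSG00000025289) started low and had its highest mean at 72h. It stood at 10.9, 6.18 and 6.70 TPM in Naive, 24.99, 29.5 and 29.0 TPM at 24h, 58.1, 51.0 and 57.5 TPM at 48h, and 64.9, 68.7 and 68.7 TPM at 72h. None of the 4 groups overlapped. Against Naive it rose by 1.72, 2.697 and 2.97 (SE 0.15, adjusted p = 1.63e-07, 1.70e-09 and 7.02e-10), and 72h was 1.25 above 24h (adjusted p = 1.39e-05). The step of 0.97 at 48h vs 24h (adjusted p = 1.59e-04) lay just under the fold minimum and passed it after quantile normalization (1.01), after median-of-ratios scaling (1.02) and in limma voom on recovered reads (1.03), an alternative chosen after seeing the data. The step of 0.28 at 72h vs 48h did not pass (adjusted p = 0.164).

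Srxn1 (ENSMUSG00000032802) encodes sulfiredoxin, which repairs over-oxidised peroxiredoxins, and was the least abundant member in every group. It stood at 5.43, 4.35 and 2.67 TPM in Naive, 3.70, 3.49 and 3.41 TPM at 24h, 4.26, 2.65 and 4.29 TPM at 48h, and 1.62, 1.36 and 1.51 TPM at 72h. These values rest on 39 to 99 reads in Naive, 57 to 65 at 24h, 47 to 72 at 48h and 22 to 27 at 72h. The first 3 groups overlapped, and all 72h libraries lay below all others. Srxn1 fell by 1.01 at 72h vs Naive (SE 0.20, adjusted p = 3.38e-04), while 24h (−0.15, adjusted p = 0.494) and 48h (−0.11, adjusted p = 0.624) did not pass and turned sign after quantile normalization (0.13 and 0.11). The call at 72h was lost without Naive replicate 1 (−0.83), Naive replicate 2 (−0.96) or 72h replicate 2 (−0.97), with a pseudocount of 5 TPM (−0.48) and with quantile normalization (−0.71), and the gene is not tested with a filter of 5 TPM. At 72h vs 48h the difference was −0.90 (adjusted p = 0.00256) and at 72h vs 24h −0.86 (adjusted p = 0.00212), both under the fold minimum, and both past it with a pseudocount of 0.1 TPM (−1.23 and −1.19) and in voom on recovered reads (−1.28 and −1.21).

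Of the subunits of glutamate-cysteine ligase, Gclm was called higher and Gclc was not. Gclc (ENSMUSG00000032350), the catalytic subunit, stood at 42.6, 53.7 and 51.0 TPM in Naive, 46.9, 48.9 and 51.9 TPM at 24h, 45.4, 49.97 and 46.7 TPM at 48h, and 50.7, 52.0 and 47.0 TPM at 72h. All 4 groups overlapped. Its log2 differences from Naive were 0.01 at 24h (95% interval −0.18 to 0.19), −0.05 at 48h (−0.23 to 0.14) and 0.03 at 72h (−0.16 to 0.21), with adjusted p = 0.929, 0.624 and 0.779. The sign turned with scaling, to −0.29 at 24h and −0.28 at 72h with median-of-ratios scaling (adjusted p = 0.0018 and 0.0022), and also without Naive replicate 1 (−0.09 and −0.07). Gclm (ENSMUSG00000028124), the modifier subunit, stood at 10.4, 9.75 and 6.95 TPM in Naive, 26.1, 24.3 and 26.1 TPM at 24h, 19.96, 18.7 and 18.8 TPM at 48h, and 21.5, 24.6 and 20.9 TPM at 72h. All activated libraries lay above all Naive libraries, and 24h and 72h overlapped. It rose by 1.42, 1.02 and 1.23 against Naive (SE 0.12, adjusted p = 1.19e-07, 3.45e-06 and 5.56e-07). The call at 48h was lost without Naive replicate 3 (0.86) or 48h replicate 1 (0.99), in voom (0.95) and after quantile normalization (0.93). The values at 48h and 72h were 0.79 and 0.94 after median-of-ratios scaling, and 0.79 and 0.97 with a pseudocount of 5 TPM, all under the fold minimum. Gclm was 0.40 lower at 48h vs 24h (adjusted p = 0.0149, under the fold minimum).

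Gsr (ENSMUSG00000031584), glutathione reductase, stood at 60.5, 44.0 and 38.9 TPM in Naive, 103, 98.7 and 103 TPM at 24h, 82.4, 83.2 and 76.2 TPM at 48h, and 78.9, 75.6 and 73.0 TPM at 72h. All activated libraries lay above all Naive libraries, and all 24h libraries above the later ones. Gsr rose by 1.09 at 24h vs Naive (SE 0.12, adjusted p = 1.44e-06), and stood 0.76 above Naive at 48h and 0.68 at 72h (adjusted p = 4.60e-05 and 1.39e-04), under the fold minimum. The call at 24h was lost without Naive replicate 3 (0.96), after quantile normalization (0.71), after median-of-ratios scaling (0.80) and in voom on recovered reads (0.93). From 24h it was lower by 0.33 at 48h (adjusted p = 0.0338) and 0.42 at 72h (adjusted p = 0.00888).

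Gpx4 (ENSMUSG00000075706), the selenoenzyme that reduces lipid peroxides, had its highest mean at 48h. It stood at 158, 132 and 121 TPM in Naive, 183, 154 and 179 TPM at 24h, 281, 276 and 266 TPM at 48h, and 246, 244 and 246 TPM at 72h. Naive and 24h overlapped, and all 48h libraries lay above all 72h libraries. It rose by 1.00 at 48h vs Naive (SE 0.09, adjusted p = 1.49e-07), a value on the fold minimum that slipped under it without Naive replicate 2 (0.98) or 3 (0.92), without 48h replicate 1 (0.99) or 2 (0.999), after quantile normalization (0.74) or median-of-ratios scaling (0.75), with a pseudocount of 5 TPM (0.98) and in voom (0.87). Against Naive it was 0.33 higher at 24h (adjusted p = 0.00321) and 0.84 at 72h (adjusted p = 9.11e-07), both under the fold minimum, and at 24h the value was −0.05 after quantile normalization and 0.03 after median-of-ratios scaling. The difference of 0.67 at 48h vs 24h (adjusted p = 3.68e-05) also lay under the fold minimum. At 72h vs 48h the step of −0.16 did not pass (adjusted p = 0.164), so these 2 times were not told apart by the test.

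Steps between activated times were small for most members. At 48h vs 24h limma called Txnip and no member lower (3.07% of all genes were lower), with 2 members lower at an unadjusted p under 0.05 and none lower in voom. By adjusted p alone 3 members were higher (Txnip, Prdx4 and Gpx4, against 22.1% of all genes) and 2 lower (Gclm and Gsr, against 30% of all genes). At 72h vs 48h limma called no member (2.81% of all genes were higher and 3.22% lower), with 2 higher and 2 lower at an unadjusted p under 0.05. In voom 1 member, Srxn1, was lower there. By adjusted p alone Txnip and Prdx1 were higher (2 members, against 23.5% of all genes) and Srxn1 lower (1 member, against 19%). At 72h vs 24h Txnip and Prdx4 rose (2 members, against 6.93% of all genes) and none fell in limma (6.2% of all genes did), with 3 lower at an unadjusted p under 0.05 and 1 in voom. By adjusted p alone 3 members were higher there (Txnip, Prdx4 and Gpx4, against 29.1%) and 3 lower (Txnrd1, Gsr and Srxn1, against 30.8%). Libraries did not overlap for 4 members above and 4 below at 48h vs 24h, 4 and 3 at 72h vs 48h, and 4 and 3 at 72h vs 24h. Of all genes tested, 64.3%, 59.2% and 70.4% did not overlap in these comparisons.

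Ratios between members within a library do not depend on any factor applied to the whole library, though quantile normalization can change them. For this, 3 pairs were set side by side after their values were seen. Txnip exceeded Txn1 by 7.68, 14.2 and 18.6 times in the Naive libraries, and stood at 0.105, 0.0955 and 0.124 times Txn1 at 24h, 0.190, 0.195 and 0.186 times at 48h and 0.279, 0.276 and 0.271 times at 72h. Gclc exceeded Gclm by 4.09, 5.51 and 7.34 times in Naive, 1.80 to 2.01 times at 24h, 2.28 to 2.68 times at 48h and 2.11 to 2.36 times at 72h. Prdx4 per Prdx1 was 0.0550 to 0.0827 in Naive, 0.0710 to 0.0870 at 24h, 0.169 to 0.204 at 48h and 0.170 to 0.188 at 72h. Of 9 comparisons with Naive, 8 had no overlap and an exact permutation p of 0.1 (2-sided, adjusted p = 0.113), the smallest that 3 against 3 libraries allow, and Prdx4 per Prdx1 at 24h gave an exact permutation p of 0.7.

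**Figure D3:**
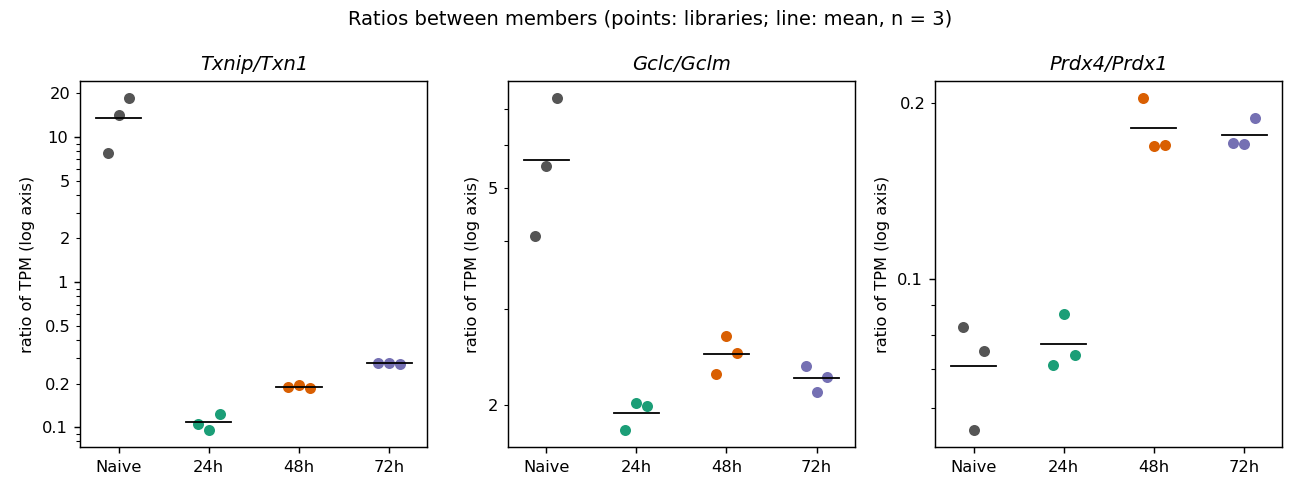
Ratio of TPM between 2 genes within each library (vertical log axis) in Naive, 24h, 48h and 72h libraries, for Txnip over Txn1, Gclc over Gclm and Prdx4 over Prdx1, with lines at the mean of 3 libraries. Txnip over Txn1 lies above 7 in all Naive libraries and below 1 in all activated ones, and Prdx4 over Prdx1 separates 48h and 72h from Naive and 24h.

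The 3 Naive libraries differed among themselves more than the activated ones, and several members were ordered like the markers of other cells. Naive replicate 1 held the highest and replicate 3 the lowest summed myeloid markers (3146, 2156 and 1216 TPM in replicates 1, 2 and 3), and likewise for B cell markers (3436, 2914 and 2353 TPM). Of the 10 members, 6 showed the same order (Txn1, Prdx1, Gclm, Gsr, Srxn1 and Gpx4), while Txnip showed the opposite one, as did the T cell marker sum (6382, 6575 and 6799 TPM). How many of all genes tested share this order was not counted, so whether 6 of 10 is unusual cannot be said. The part of other cells in the Naive levels of these genes was not tested. Without Naive replicate 3, the lowest for Gsr, the rise of Gsr at 24h was 0.96 and under the fold minimum.

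**Figure D4:**
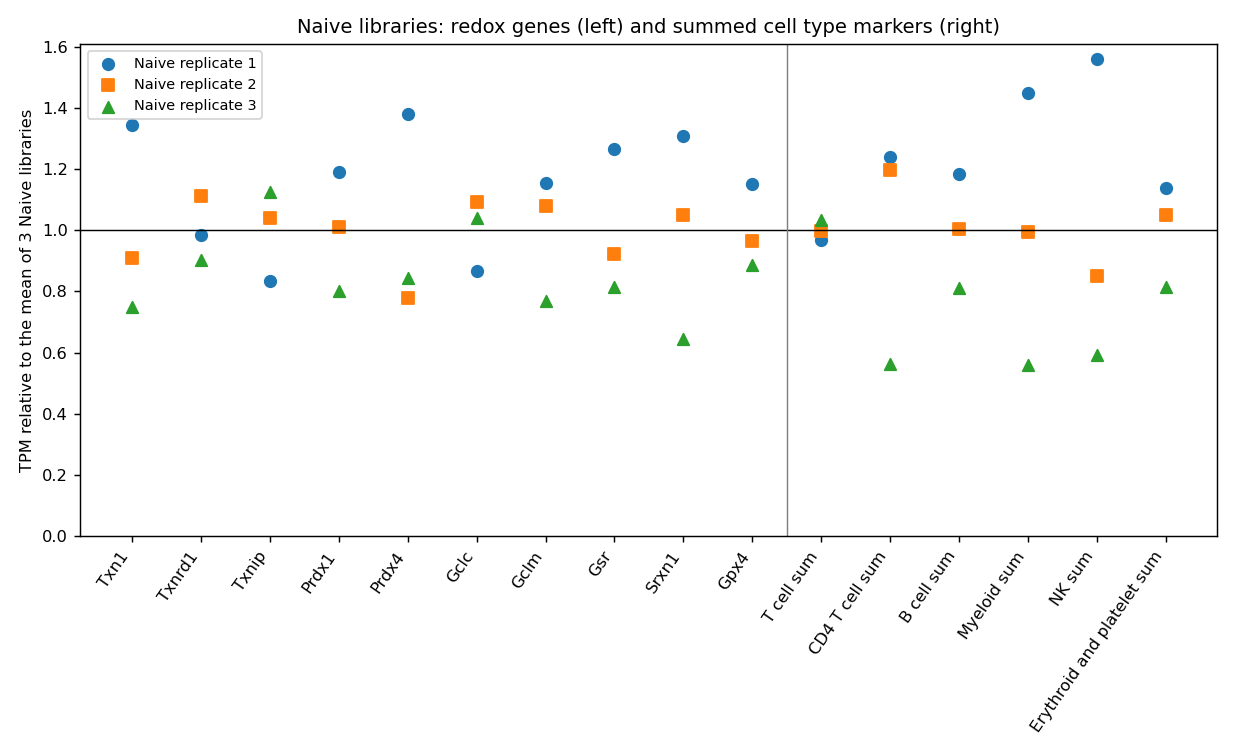
TPM in each Naive library relative to the mean of the 3 (vertical axis), for the 10 genes on the left and for summed markers of 6 cell types on the right. Replicate 1 lies highest and replicate 3 lowest for myeloid and B cell sums and for 6 of the 10 genes, and the order is turned round for Txnip and the T cell sum.

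Other genes of the same pathways were counted from lists chosen with earlier results of these data known, and each count is to be read against the shares of all genes given above for that comparison. Of 8 thioredoxin system genes besides the members, 6 rose at 24h, 5 at 48h and 5 at 72h. Txnl1, a thioredoxin-like protein of the proteasome, had 205 ± 9.97 TPM at 24h and 43.7 ± 3.07 TPM in Naive (SD, n = 3, as for all means here; log2 fold change 2.20), and nucleoredoxin Nxn rose by 1.98. Txn2, the mitochondrial thioredoxin, was 0.91 higher at 24h, under the fold minimum, and −0.04 from Naive at 72h (adjusted p = 0.55). Txndc17, a thioredoxin-like oxidoreductase, rose by 1.36 and the splicing protein gene Txnl4a by 1.26 at 24h.

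Of 7 other genes on the peroxiredoxin list, 2 rose and 2 fell at 24h, near the 25.7% and 21% of all genes, and 3 rose and 2 fell at 48h and at 72h. Prdx3, the mitochondrial peroxiredoxin, stood at 66.3 ± 5.92 TPM in Naive, 334 ± 18.4 at 24h, 274 ± 16.3 at 48h and 231 ± 5.92 at 72h, with a log2 fold change of 2.32 at 24h vs Naive. Prdx2, cytosolic like Prdx1, rose to 77.5 ± 6.02 TPM at 24h and 132 ± 3.25 at 72h against 37.9 ± 9.08 in Naive. Prdx6, which draws on glutathione instead of thioredoxin, was at 281 ± 14.7 TPM in Naive and fell by 1.02, 1.62 and 1.16 at the later times. Sesn1, a sestrin, fell by 2.46 at 24h, and Prdx5 was 0.35 higher, under the fold minimum. The other sestrins, picked after their values were seen, differed from Sesn1. Sesn2 was 0.85 higher at 24h, under the fold minimum, and rose by 2.19 at 48h and 2.25 at 72h. Sesn3 was 0.58 lower at 24h, under the fold minimum.

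Of 8 other genes of glutathione synthesis and recycling, 2 rose and 2 fell at 24h, 4 rose and 2 fell at 48h, and 3 rose and 2 fell at 72h. Ggt1, which breaks down extracellular glutathione, was at 0.476 ± 0.102 TPM at 24h and 44.7 ± 4.03 in Naive (−4.95), a value that rests on 6 to 16 reads in each activated library. Slc3a2, the shared heavy chain of several amino acid transporters, was 0.45 lower at 24h and 0.45 higher at 48h than Naive, both under the fold minimum, with 318 ± 10.3 TPM at 48h. The following were picked after their values were seen. Slc7a11, its partner in cystine import, peaked at 2.50 ± 0.18 TPM at 48h against 0.391 ± 0.367 in Naive (1.36), and glutathione synthetase Gss rose by 1.04 at 48h to 10.3 ± 0.735 TPM. At 24h neither Slc7a11 (0.18) nor Gss (0.85) was called. The 2 that rose there were Chac1 (2.36) and Chac2 (2.20), whose enzymes break down glutathione and do not build it. Both also rose at 48h (3.16 and 2.79) and 72h (2.75 and 2.07). Chac1 drew 15, 2 and 0 reads in the Naive libraries, and Chac2 drew 22, 12 and 8. Among the other glutathione peroxidases, Gpx1 stood at 516, 360.4 and 257 TPM in Naive replicates 1, 2 and 3, which is the order of the myeloid markers, and at 538 ± 43.7 TPM at 24h (0.56, under the fold minimum).

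Known NRF2 targets outside the members did not share 1 direction. Of 14 listed, 13 were tested, and 3 rose and 5 fell at 24h, 6 rose and 5 fell at 48h, and 4 rose and 5 fell at 72h, with a list median of −0.27, 0.18 and 0.45 beside 0.15, 0.15 and 0.21 for all genes. The transketolase Tkt rose by 1.90 at 24h, to 319.9 ± 13.1 TPM against 85.0 ± 8.57 in Naive, and Taldo1 was −0.50 from Naive, under the fold minimum. Hmox1, which degrades haem and is abundant in splenic macrophages, was at 8.15, 7.94 and 10.8 TPM at 24h and at 650.2, 515 and 185.5 TPM in Naive replicates 1, 2 and 3, an order shared with the summed myeloid markers. Ftl1, the ferritin light chain, fell by 1.47 at 24h and stood at 4156, 3373 and 2282 TPM in the same Naive libraries, also in the order of the myeloid markers. Blvrb and Osgin1, picked after their values were seen, were also far lower at 24h and had the same order in Naive. Blvrb stood at 51.0, 29.9 and 19.6 TPM in Naive replicates 1, 2 and 3, with a mean of 4.29 at 24h. Osgin1 stood at 17.9, 15.3 and 7.59 TPM there, with a mean of 0.0989 at 24h. The part of other cells in the falls of Hmox1, Ftl1, Blvrb and Osgin1 was not tested. Sqstm1, an autophagy receptor, fell by 2.58, with 76.1 ± 4.10 TPM at 24h and 460.2 ± 9.33 in Naive. Picked after their values were seen, Nqo1 stayed between 0.103 and 2.39 TPM in all 12 libraries, and the pentose phosphate enzymes G6pdx and Pgd rose by 1.73 and 1.53 at 24h.

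Of 10 NRF2 regulators, 2 rose and 3 fell at 24h, 1 rose and 3 fell at 48h, and 1 rose and 4 fell at 72h. Of the small MAF proteins that pair with NRF2, Maff fell by 3.87 at 24h, to 8.25 ± 1.21 TPM against 134 ± 11.2 in Naive, and Mafk by 1.56, whereas Mafg, picked after its values were seen, was 0.68 higher, under the fold minimum. Nfe2l1, an NRF2 relative that controls proteasome genes, rose by 1.72 at 48h. Rbx1 rose by 1.03 at 24h and Cul3 was 0.44 higher, under the fold minimum. These encode the core of the ubiquitin ligase that, with Keap1, degrades NRF2. Bach1, picked after its values were seen, fell by 1.18 at 24h, 1.35 at 48h and 1.54 at 72h. Bach2, picked likewise, was 0.58 higher at 24h and 0.55 lower at 48h, both under the fold minimum, and fell by 1.02 at 72h. Nfe2l2 itself, also picked after its values were seen, was at 14.7 ± 0.871 TPM at 24h and 27.7 ± 2.75 in Naive (−0.86, adjusted p = 4.4e-07), and Keap1 at 39.8 ± 1.55 TPM at 24h and 21.3 ± 0.839 in Naive (0.87), both under the fold minimum.

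Txnip belongs to the alpha-arrestins and is known to be driven by MondoA (Mlxip) with its partner Mlx. Of 7 genes listed for relatives and these factors, 6 were tested, and 1 rose and 4 fell at 24h, 1 rose and 3 fell at 48h, and 2 fell at 72h. Arrdc1 fell by 1.42 at 24h, Arrdc3 by 1.49 and Mlxip by 1.16, whereas Mlx rose by 1.07. Mlxip was at 30.7 ± 1.12 TPM at 24h and 71.7 ± 19.9 in Naive.

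**Figure D5:**
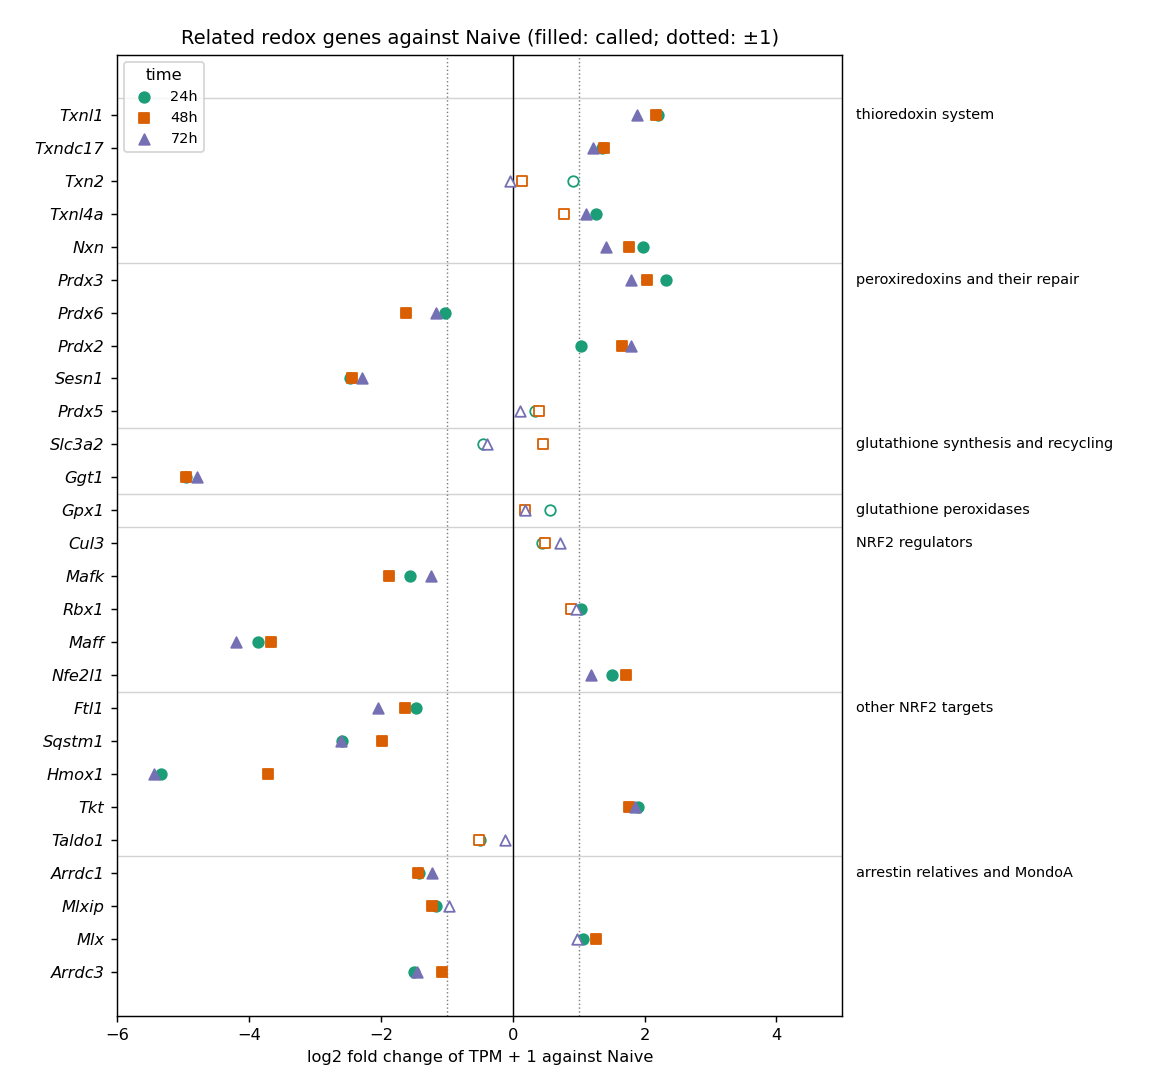
Log2 fold change of TPM + 1 against Naive (horizontal axis) at 24h, 48h and 72h for named genes of 7 related lists, filled where called. Thioredoxin system genes and Prdx3 lie to the right, Ggt1, Hmox1 and Maff lie furthest to the left, and the NRF2 target list has genes on both sides.

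The genes with the most similar pattern were found by Pearson r on log2(TPM + 1) over the 12 libraries, a description in which the gap between Naive and activated libraries weighs most. Txnrd1 was nearest to Nup37 (r = 0.999) and Carnmt1 (0.998), Txn1 to Cdca8 and Mrps14 (both 0.994), and Prdx1 to Gins1 (0.994) and Ccp110 (0.993). Txnip was nearest to Vamp2 (0.994), at 129 TPM in Naive and 19.2, 26.9 and 32.4 TPM at 24h, 48h and 72h, and to Gnptg (0.993). Prdx4 was nearest to Prr11 and to Prdx2 (both 0.994), Gsr to Hmox2 (0.991) and Blvra (0.982), Gclm to Dnph1 (0.986) and Gins2 (0.985), and Gpx4 to Casp6 (0.990) and Tubb6 (0.986). The nearest genes to Srxn1 were Fscn1 (0.942) and Il6 (0.939), and to Gclc Pou2f1 (0.854) and Cnot2 (0.846).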

How the data were processed

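RNA-seq values of 12 libraries were deposited by the authors as TPM (expression corrected for transcript length), 1 column a library, each summing to 1000000. STAR 2.7.7a, cutadapt 2.9, FastQC 0.11.9, edgeR 3.36.0 and the GRCm39 build are named, per the submitters' processing notes. How reads were counted, with strand or shared reads, is not given in the sources used here. Genomic positions come with the RefSeq promoter windows only, which are of GRCm38.p6.

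TPM was taken as log2(TPM + 1), which understates changes of low genes, and 12630 genes (3 or more libraries at 1 TPM or above) were fitted with limma 3.58.1 in R 4.3.3 (4 group means, empirical Bayes, intensity trend, 2-sided, Benjamini-Hochberg over all genes tested in each of 6 comparisons). Calls needed a log2 fold change of 1 or more in size and an adjusted p under 0.05. Whole reads, within a tolerance of 0.001, were recovered for 99.99% of the genes above 0, can be too few by a whole-number factor in some, and served for depth and 1 alternative. Ratios were tested with exact permutation in Python 3.11.15 with scipy 1.17.1, and figures made with matplotlib 3.10.9.

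The members and lists were chosen with earlier results of these data known. From the lists, genes of at least 20 TPM in a group were named in order of level, up to 5 for lists of the pathway and 2 for the others; genes named outside this are marked. Fth1, Selenoi and Selenoo had no row under those symbols and were not analysed here. The labels do not say whether same-numbered libraries are paired, and the main fit did not pair them. Alternatives were 2 other pseudocounts, 2 other filters, 2 other scalings, a replicate block, no trend, a fit on the compared groups, no fold minimum, each library left out and voom.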

Additional observations from a re-analysis of the deposited data

How the results depend on the processing

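Of 954 values of single members under an alternative, 917 kept their call or lack of one, 26 lost it and 11 gained it, and 24 values, none of them called, turned sign (Gclc, Srxn1, Txn1 and Gpx4, the largest 0.34 in size). Txn1, Txnrd1, Prdx1, Prdx4 and Txnip kept their calls against Naive at all 3 times under every alternative run. The calls of Gsr, Gclm, Gpx4 and Srxn1 that lie near the fold minimum moved with scaling, pseudocount or 1 Naive library, as given beside them. With each library left out, members higher against Naive numbered 5 to 6 at 24h, 4 to 6 at 48h and 5 at 72h. Members higher at 48h vs 24h numbered 1, and 2 with median-of-ratios scaling, quantile normalization and voom (Prdx4 gained), 3 with no fold minimum, and 1 to 2 with each library left out. Members lower there numbered 0, and 2 with no fold minimum. Members lower at 72h vs Naive numbered 2, and 1 with a pseudocount of 5 TPM, a filter of 5 TPM and quantile normalization, and 1 to 2 with each library left out. Members lower at 72h vs 48h numbered 0, and 1 with a pseudocount of 0.1 TPM, voom and no fold minimum, and 0 to 1 with each library left out, and members higher there numbered 0, and 2 with no fold minimum. Members lower at 72h vs 24h numbered 0, 1 with a pseudocount of 0.1 TPM and voom, and 3 with no fold minimum. With the replicate block no call of a member changed (members higher at 24h vs Naive stayed at 6). Same-numbered libraries correlated between −0.05 and 0.09 in their deviations from the group means. These values show no strong shared signal by replicate number. They cannot settle whether same-numbered libraries came from the same mouse, which the labels do not say. Why these calls moved was not tested beyond their place at the fold minimum. Low counts limit Srxn1 among the members, with 22 to 99 reads a library. Among the other genes named they limit Ggt1, Slc7a11, Chac1, Chac2, Aifm2, Nqo1, Osgin1, Blvrb and Gpx3.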

Other observations

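Redox genes of the endoplasmic reticulum, where Prdx4 works, were counted too. Of 9 genes of oxidative folding, 5 rose and 2 fell at 24h and at 48h, and 3 rose and 1 fell at 72h. Ero1l, the oxidase that passes electrons from protein disulfide isomerase to oxygen and makes hydrogen peroxide, stood at 25.97 ± 1.58 TPM in Naive, 148 ± 28.9 at 24h, 1018 ± 36.1 at 48h and 507 ± 25.1 at 72h (log2 fold change 5.24 at 48h vs Naive, limma adjusted p = 3.0e-13). P4hb, a protein disulfide isomerase, rose by 2.00 at 48h, to 869.9 ± 20.9 TPM against 217 ± 14.5 in Naive.

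Txnrd1 and Gpx4 carry selenocysteine. Of 7 genes of the selenocysteine machinery, 3 rose at 24h, 1 at 48h and 1 at 72h. Sephs2, which makes the selenium donor, was at 154.5 ± 6.39 TPM at 24h and 47.4 ± 5.66 in Naive (1.69), and the elongation factor Eefsec rose by 1.09. Of 15 other selenoprotein genes tested, of 17 listed, 4 rose and 5 fell at 24h, 4 rose and 4 fell at 48h, and 3 rose and 2 fell at 72h. This list shares Sephs2, Txnrd2, Txnrd3, Gpx1 and Gpx3 with other lists counted here, and Txnrd2, Txnrd3 and Gpx3 are named for that overlap alone. Of the shared genes, Sephs2, Txnrd2 and Txnrd3 were among those that rose at 24h, and Gpx3 among those that fell. Sepw1 fell by 1.20 at 24h, to 219 ± 25.1 TPM against 505 ± 53.9 in Naive.

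Glutaredoxins use glutathione to reduce protein disulfides. Of 4 listed, 2 rose at 24h, 1 at 48h and 2 at 72h. Glrx stood at 29.1 ± 5.44 TPM in Naive, 73.0 ± 7.12 at 24h, 34.4 ± 2.20 at 48h and 221 ± 10.6 at 72h, and rose by 2.64 at 72h vs 48h (adjusted p = 6.1e-09). Glrx5 was 0.88 higher at 24h vs Naive, under the fold minimum. Of 13 glutathione transferases tested, of 16 listed, 5 rose and 2 fell at 24h, 3 rose and 2 fell at 48h, and 7 rose and 1 fell at 72h. Gstp1, which has a near-identical neighbour in the mouse and may share reads with it, was 0.56 higher at 72h, under the fold minimum, and Gstt2 rose by 1.19 there.

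Of 4 superoxide dismutase and catalase genes tested, 1 rose at each time against Naive, which was the mitochondrial Sod2 (1.44 at 24h, picked after its values were seen), while Sod1 was 0.39 higher and Cat −0.33 from Naive at 24h, both under the fold minimum. Of 10 NADPH-producing enzymes tested, 5 rose and 1 fell at 24h, 7 rose at 48h and 6 at 72h, with Mthfd2 higher by 4.40 at 48h and Mthfd1 by 3.39 at 24h. Of 7 genes linked to lipid peroxidation, which Gpx4 counters, 4 rose at 24h, 5 at 48h, and 5 rose and 1 fell at 72h. Those that rose at 24h were Acsl4 and Lpcat3, which build lipids prone to peroxidation, the transferrin receptor Tfrc (3.30), which brings in iron, and Dhodh, known to protect mitochondrial lipids. The protective genes Aifm2, Gch1 and Slc7a11 gave −0.11, −0.54 and 0.18 at 24h, none called, and all but Acsl4 and Tfrc were picked after their values were seen. This held for 24h only, since Slc7a11 rose by 1.36 at 48h. At 72h Aifm2 was at 2.87 ± 0.776 TPM and Gch1 at 8.36 ± 0.0967, against 0.660 ± 0.351 and 28.0 ± 3.03 in Naive. Of 6 NADPH oxidase genes tested, of 10 listed, 3 fell at 24h, 1 rose and 2 fell at 48h, and 2 fell at 72h. Rac2 fell by 1.08 at 24h and Cyba was 0.08 from Naive (adjusted p = 0.47).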
